A study of Mus musculus with 4 samples.

Results

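The endoplasmic reticulum (ER) is where a cell folds the proteins it secretes. A secreted chain enters through the Sec61 channel, loses its signal peptide, is folded by chaperones and disulfide isomerases, and leaves in COPII-coated vesicles, while KDEL receptors return escaped chaperones from the Golgi. When unfolded chains accumulate, the sensors IRE1, PERK and ATF6 start the unfolded protein response, whose transcription factors XBP1, ATF4 and ATF6 raise chaperones, degradation factors and trafficking genes. Osteoblasts, which lay down type I collagen, are a textbook case of a heavily secreting cell.

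The genes described here are 36 named genes of this machinery, taken by symbol from a list, out of 28006 features in the count tables. No cut on measured values was applied, but the list was chosen with earlier results of these data known. They comprise 10 folding chaperones and co-chaperones, 5 disulfide isomerases and their partners, 11 translocon and signal peptidase genes, 4 vesicle coat and retrieval genes and 6 stress regulators, and all 36 were found in the tables. A further 92 genes of the same pathway, listed by function and also chosen with earlier results known, serve as a comparison.

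All 4 libraries were single-cell transcriptomes of tdTomato+ cells from femurs of mice carrying the Cxcl12-iCreER transgene and 1 copy of the R26R-tdTomato reporter. Tamoxifen was given 7 days before marrow ablation, and cells were sorted 7 days after it. By the study's account, the 2 ABL libraries came from the ablated femurs and the 2 CONT libraries from contralateral, unoperated femurs. Both came from the same kind of mice, so the CONT groups carried the same alleles and had the same tamoxifen. The Cre is driven by Cxcl12 regulatory sequence and labels reticular stromal cells at the time of tamoxifen, and the cells of replicate 1 were pooled from several mice. The replicates also differ in kit, Chromium v2 for the first and v3 for the second, and the effects of kit and replicate cannot be told apart. The study's authors call them biological replicates, and nothing in the labels says whether they came from separate litters. The p-values therefore speak of these libraries only. With so few libraries, the test takes its spread largely from all genes together and not from each gene's own spread between libraries. In the test of ABL against CONT in reticular-like cells and in the osteoblast-like test, a gene's own spread had in effect no part.

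After cell calling there were 9833 cells, between 1459 and 3433 per library, with 22889380 to 44784072 unique molecular identifiers (UMIs, the count of captured RNA molecules) per library. Only 1313, 681, 2054 and 1809 of them (CONT 1, ABL 1, CONT 2, ABL 2) were mesenchymal, and most of the rest were hematopoietic although the cells were sorted for tdTomato. Library pairs shared at most 5 cell barcodes. ABL 2 stood apart. Of its cells 0.118% had a Xist UMI, against 44.9 to 69.5% in the other libraries. A UMI of a Y-linked gene was found in 70.5% of its cells, against 12.6 to 27.2%. In CONT 2 the shares were 69.5% and 27.2%, so its cells cannot all be from the opposite femurs of the ABL 2 mice. A share of free RNA estimated from hemoglobin transcripts was 65.6% in reticular-like cells of ABL 2 against 0.940 to 13.8% in the other libraries. In the mesenchymal classes of ABL 2 the same estimate ran from 0.311% in osteoblast-like to 81.0% in cycling cells. It was 1.35% in pre-osteoblast-like and 6.11% in fibroblast-like cells of ABL 2, and why it differed between classes was not tested.

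Reticular-like cells (1158, 407, 1944 and 339 cells in CONT 1, ABL 1, CONT 2 and ABL 2) had a Cxcl12 level of 13770 to 17280 CPM (counts per class sum scaled to 1000000 UMIs), and at least 1902 CPM of Adipoq. Lepr, another marker of this class, differed by condition, at 1242, 703, 2199 and 591 CPM in the same order. Osteoblast-like cells, numbering 9, 49, 2 and 54, had 33140 to 88030 CPM of Bglap, the osteocalcin gene, and at most 292 of Cxcl12. Pre-osteoblast-like cells numbered 41, 75, 33 and 59. Names rest on marker genes, and no member, pathway gene or reporter was used to form the clusters.

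Some members carry recognisable stress response sequences in their promoters, which is why a few are shown before the values. The ER stress element is CCAAT, 9 further bases and CCACG, the site where ATF6 with NF-Y acts, and the XBP1-type element is TGACGTGG. RefSeq promoters (GRCm38.p6, 250 bases before to 50 after the start) were found for 27 of the 36 members. The ER stress element, searched on both strands, lay in 7 of these 27 promoters, namely Hspa5, Hsp90b1, Dnajc3, Calr, Canx, Pdia6 and Creld2, against 0.137% of 27025 genes with a promoter. Its second form, ATTGG, 1 base and CCACG, lay in those of Dnajb11 and Herpud1, against 0.0444% of genes. The XBP1-type element lay in those of Sec24d and Kdelr3, against 0.714% of genes. The cAMP response element TGACGTCA was in none of the 27, against 2.03% of genes, and the amino acid response type sequence, TGATG, 1 base and AA, lay in that of Herpud1, against 4.51%. A match is a description of the letters and not evidence of a working site. Of the 18 members called higher in osteoblast-like cells, 13 had a promoter and none of these held the ER stress element, while 3 of 5 among those called lower and 4 of 9 among those not called did. That split is of calls with TMM scaling. All 7 genes with the element are chaperones or isomerases, roles in which 1 member was called higher, so element and role cannot be told apart. Members without a promoter, Hyou1, Atf6, Creb3l1, Kdelr2 and Tram1 among them, do not enter the split. The share of promoters with the element among all genes called higher or lower is not given. With library sizes only, described further on, 39% of all genes tested were called lower. All 7 genes with the element were called lower in that setting (7 of 12 lower members with a promoter, 0 of 6 higher and 0 of 9 not called). The promoters shown are 3 of members lower in osteoblast-like cells and 2 of members higher there, with the elements in capitals, and the minus-strand copies in Hsp90b1 and Kdelr3 read as the reverse complement.

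Hspa5 promoter (chr2:34771840-34772139, plus strand): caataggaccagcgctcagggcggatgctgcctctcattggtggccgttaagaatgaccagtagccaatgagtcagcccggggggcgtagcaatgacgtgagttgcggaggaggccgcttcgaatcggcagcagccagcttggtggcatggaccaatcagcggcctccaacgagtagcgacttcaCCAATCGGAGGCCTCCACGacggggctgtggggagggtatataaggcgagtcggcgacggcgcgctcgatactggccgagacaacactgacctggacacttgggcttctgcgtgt
Hsp90b1 promoter (chr10:86705395-86705694, minus strand): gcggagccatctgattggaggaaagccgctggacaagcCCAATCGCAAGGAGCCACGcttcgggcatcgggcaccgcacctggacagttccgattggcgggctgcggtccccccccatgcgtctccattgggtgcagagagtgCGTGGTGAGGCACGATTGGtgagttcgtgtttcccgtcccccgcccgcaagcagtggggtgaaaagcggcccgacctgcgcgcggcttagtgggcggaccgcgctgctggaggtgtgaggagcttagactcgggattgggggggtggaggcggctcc
Pdia6 promoter (chr12:17266339-17266638, plus strand): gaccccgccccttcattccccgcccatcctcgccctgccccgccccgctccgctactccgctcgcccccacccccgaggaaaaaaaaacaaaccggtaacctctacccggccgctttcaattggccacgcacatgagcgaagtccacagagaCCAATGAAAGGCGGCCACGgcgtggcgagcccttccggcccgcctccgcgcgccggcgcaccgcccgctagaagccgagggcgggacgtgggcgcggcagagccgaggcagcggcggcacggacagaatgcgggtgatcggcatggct
Kdelr3 promoter (chr15:79516158-79516457, plus strand): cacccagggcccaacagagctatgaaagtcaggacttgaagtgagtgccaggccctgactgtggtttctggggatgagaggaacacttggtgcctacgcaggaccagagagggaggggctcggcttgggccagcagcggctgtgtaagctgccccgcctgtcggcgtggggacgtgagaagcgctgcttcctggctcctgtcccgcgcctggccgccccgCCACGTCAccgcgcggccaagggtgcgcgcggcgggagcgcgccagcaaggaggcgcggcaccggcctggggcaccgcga
Sec24d promoter (chr3:123267246-123267545, plus strand): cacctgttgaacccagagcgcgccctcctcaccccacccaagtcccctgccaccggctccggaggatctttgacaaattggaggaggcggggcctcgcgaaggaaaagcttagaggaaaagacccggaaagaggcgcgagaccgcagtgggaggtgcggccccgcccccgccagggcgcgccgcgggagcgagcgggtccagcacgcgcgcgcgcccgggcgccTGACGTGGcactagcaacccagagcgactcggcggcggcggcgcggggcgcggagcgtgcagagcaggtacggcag

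The first comparison asked whether marrow ablation changed the members in reticular-like cells. No member passed the test. In reticular-like cells, 564 of 11365 genes (4.96%) passed an adjusted p of 0.05 by edgeR's quasi-likelihood test with the replicate as a block. Of these genes 303 were higher in ABL (2.67%) and 261 lower (2.3%), but 0 of the 36 members passed in either direction. An unadjusted p under 0.05 was found for 4 members, beside 1712 of the 11365 genes. DESeq2 also called 0. The members' median log2 fold change was 0.03, beside -0.01 over all genes tested. On the log2 scale, 13 members were higher in both replicates and 6 lower in both. The same counts over all genes are not given. Nor is the share of all genes whose CONT and ABL values do not overlap, here or for the genes named below.

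The 2 most abundant chaperones, Hspa5 and Hsp90b1, differed more between replicates than between CONT and ABL. Hspa5, the ER-resident HSP70 known as BiP, was at 969 CPM in CONT 1, 1049 in ABL 1, 2113 in CONT 2 and 1660 in ABL 2. The CONT and ABL values of this gene overlapped, with both replicate 2 libraries above both replicate 1 libraries. Hsp90b1, the ER HSP90, was at 684, 806, 1395 and 1294 in the same order. Its fold change between ABL and CONT was -0.02 ± 0.43 on the log2 scale (SE, adjusted p = 0.99).

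Dnajb9 and Sdf2l1, both BiP co-factors, were lower in ABL in both replicates without passing the test. Dnajb9 stood at 148 CPM in CONT 1, 92.7 in ABL 1, 132 in CONT 2 and 90.2 in ABL 2, so both ABL libraries lay below both CONT libraries (log2 fold change -0.70 ± 0.26, edgeR adjusted p = 0.10). Sdf2l1 stood at 49.9, 36.5, 44.1 and 25.3, again without overlap (-0.71 ± 0.24, edgeR adjusted p = 0.056). Ddit3, which encodes the stress factor CHOP, stood at 74.5, 107, 61.0 and 106, with both ABL libraries above both CONT libraries (0.58 ± 0.24, edgeR adjusted p = 0.18). The immediate early and heat shock transcripts Fos and Hspa1a, named after their values were seen, moved as well: Fos stood at 2925, 2290, 3355 and 1797 CPM, and Hspa1a at 421, 169, 308 and 104. Their part in these differences was not tested.

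None of the 11 translocon genes passed. In reticular-like cells 8 of them had a positive log2 fold change, with a median of 0.29, beside 48.9% of all genes. In myeloid cells 11 of 11 were positive (median 0.33, 53.9% of all genes), and in fibroblast-like cells 9 of 11 (0.54, 50.8%), none of them called. The myeloid replicates disagreed: the log2 ratio of every translocon gene was below 0 in replicate 1 and above 0 in replicate 2 (Sec61b -0.43 and 0.91). Sec61b, a small subunit of the channel, stood at 259 CPM in CONT 1, 350 in ABL 1, 154 in CONT 2 and 293 in ABL 2 (0.59 ± 0.32, edgeR adjusted p = 0.37). Both ABL libraries were above both CONT libraries. Sec61a1, the pore itself, stood at 81.8, 118, 80.1 and 119 (0.46 ± 0.25, edgeR adjusted p = 0.36), also without overlap. The free RNA of the same libraries held 2028, 2527, 1431 and 2161 CPM for the 11 translocon genes together, beside 2336, 2731, 1551 and 2108 in reticular-like cells.

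Pre-osteoblast markers and Col1a1 moved with the condition in these reticular-like sums. The 8 pre-osteoblast markers summed to 1532 and 1653 CPM in CONT 1 and CONT 2 and to 3948 and 2963 in ABL 1 and ABL 2. Col1a1, which encodes a chain of type I collagen, stood at 412 and 170 in the CONT libraries and at 2698 and 2663 in the ABL libraries. The 8 osteoblast markers, Col1a1 among them, summed to 4379 to 7519 in CONT and 5008 to 5822 in ABL, so the sum did not follow Col1a1. Bglap, also in this sum, stood at 16.05 CPM in CONT 1, 145 in ABL 1, 1.40 in CONT 2 and 8.43 in ABL 2. Ifitm5, a late osteoblast marker, stood at 1.90, 4.27, 0.778 and 1.10 in the same order. The other markers of this sum are not given singly. The paper describes an apparent rise of osteoblast-signature genes within its reticular clusters after ablation. Whether these transcripts came from reticular cells or from others in the sums was not tested, nor was their part in the members' values.

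**Figure D1:**
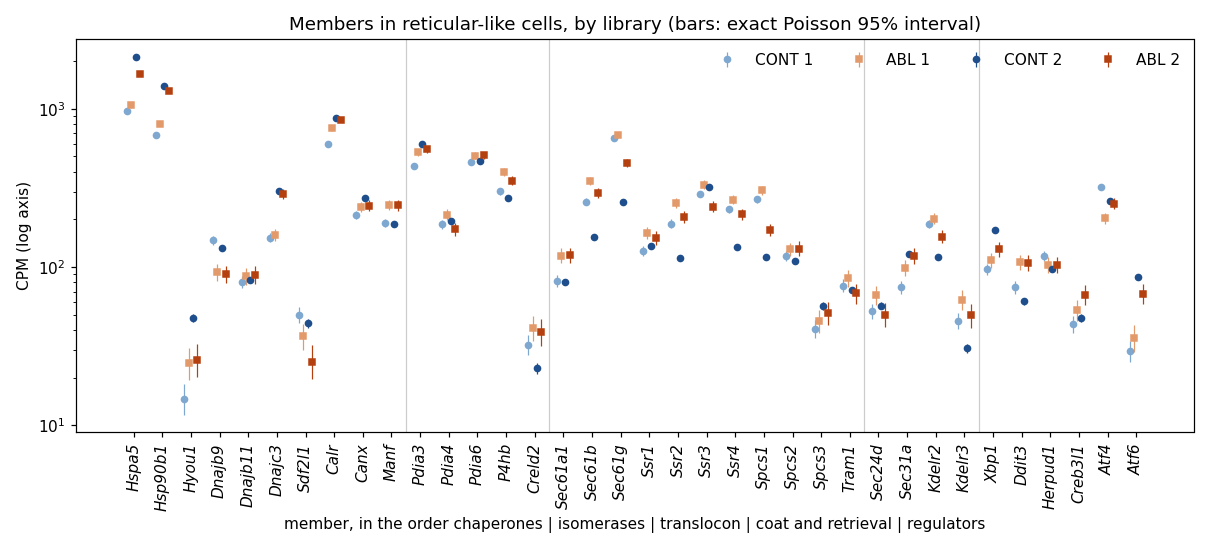
CPM (log axis) of the 36 members in reticular-like cells, 1 point per library with its exact Poisson 95% interval, which covers counting error only. For Hspa5 the replicate 2 points, 2113 and 1660, lie above the replicate 1 points, 969 and 1049, whatever the condition.

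**Figure D2:**
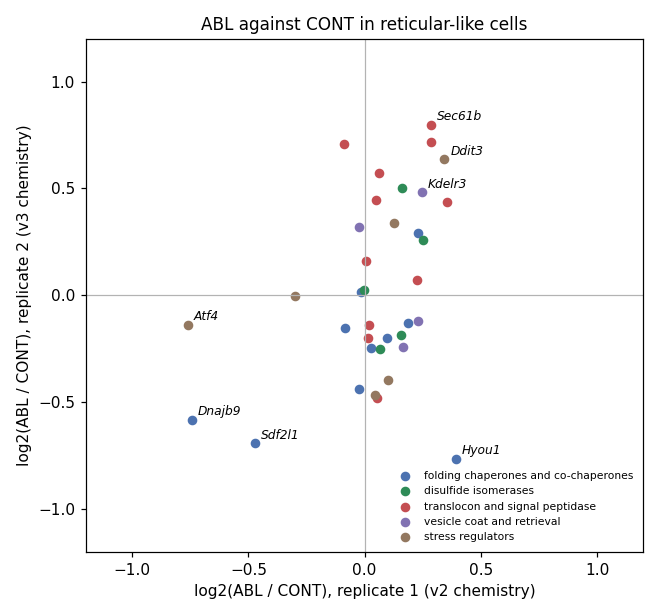
Log2 ratio of ABL to CONT in reticular-like cells, replicate 1 on the x axis and replicate 2 on the y axis, 1 point per member coloured by role. The points lie on both sides of 0 on each axis, 13 members above 0 in both replicates and 6 below 0 in both. The same counts over all genes are not given. Dnajb9 and Sdf2l1 lie in the lower left quadrant and Ddit3 in the upper right, and none of them passed the test.

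The same contrast was made in other cells. In all mesenchymal cells together, 273 of 13697 genes were called (1.99%, 1.47% higher and 0.518% lower) and 0 of 36 members (0 by DESeq2). At an unadjusted p under 0.05 there were 2 members, beside 2078 of the 13697 genes. Kdelr3 stood at 51.0 CPM in CONT 1, 90.8 in ABL 1, 33.0 in CONT 2 and 150 in ABL 2, so both ABL libraries were above both CONT libraries (1.48 ± 0.50, edgeR adjusted p = 0.16). With every cell thinned to 2000 UMIs this gene was called (1.43, edgeR adjusted p = 0.047). Creb3l1 stood at 46.2, 92.6, 48.5 and 124 (1.14 ± 0.44, edgeR adjusted p = 0.22), again without overlap. The make-up of these sums differed between libraries: osteoblast-like cells numbered 9, 49, 2 and 54 in CONT 1, ABL 1, CONT 2 and ABL 2, fibroblast-like cells 47, 57, 38 and 880, chondrocyte-like cells 7, 14, 1 and 77, and cycling cells 1, 12, 1 and 59. In such sums, more cells of a type and more RNA per cell cannot be told apart. In myeloid cells 6 of 9094 genes (0.066%, 0.055% higher and 0.011% lower) and 0 of 36 members were called (0 by DESeq2). At an unadjusted p under 0.05 there were 0 members, beside 233 of the 9094 genes. The myeloid sums of replicate 2 held granulocyte-like cells only, since no monocyte or macrophage cluster was named there. Hematopoietic cells that got no name, 20 in ABL 1, 80 in CONT 2 and 418 in ABL 2, were not in these sums. The difference between the reticular-like and the myeloid change was called for 0 of 12001 genes (0%) and so for 0 of 36 members, with 0 members and 45 genes at an unadjusted p under 0.05. No member was called in erythroid-like cells (0.83% of genes, 0.442% higher and 0.388% lower) or granulocyte-like cells (0.168%). None was called in periosteal or joint-lining fibroblast-like cells either (2.6%, 0.872% higher and 1.73% lower), and DESeq2 called 0 in each of these classes. At an unadjusted p under 0.05 there were 2 members beside 503 of 7470 genes in erythroid-like cells. There were 0 members beside 244 of 7724 genes in granulocyte-like cells, and 1 beside 865 of 6884 in fibroblast-like cells.

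With the test as set out, Creb3l1 was the 1 member called between ABL and CONT in the 7 cell groups compared. Under alternatives Kdelr3 was called in all mesenchymal cells after thinning and Sdf2l1 in reticular-like cells with the methods' barcode filter alone. Further members, not named here, were called in pre-osteoblast-like cells under alternatives that left out 1 library. Osteoblast-like, chondrocyte-like, cycling, endothelial-like and B-lineage-like cells, among others, had under 10 cells in at least 1 library to be compared. Creb3l1 encodes OASIS, an ER-bound transcription factor that osteoblasts use to drive collagen production. In pre-osteoblast-like cells, where 1.97% of 6146 genes were called, 0.846% higher and 1.12% lower, it stood at 35.4 CPM in CONT 1, 69.6 in ABL 1, 15.7 in CONT 2 and 94.96 in ABL 2, so both ABL libraries were above both CONT libraries (log2 fold change 1.74 ± 0.50, edgeR adjusted p = 0.033). Marker levels in this class moved with the condition. Its 9 reticular markers summed to 11750 and 18260 CPM in CONT 1 and CONT 2 against 4869 and 4746 in ABL 1 and ABL 2. Its 8 osteoblast markers summed to 7238 and 5087 against 11890 and 9622. Their part in the Creb3l1 difference was not tested. The sums rest on 9, 41, 7 and 52 UMIs. Without the replicate block the call was lost (1.73, edgeR adjusted p = 0.61), and DESeq2 gave no adjusted p for it (1.71). Leaving out 1 library with no block gave log2 fold changes of 1.29 to 2.26 and kept the call only without CONT 1.

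The second comparison asked how the members differ between stromal classes of the same library. In pre-osteoblast-like cells against reticular-like cells, over all 4 libraries, 866 of 10407 genes were called (8.32%), 353 higher (3.39%) and 513 lower (4.93%). Among the members 0 were higher and 1 lower, Pdia6, a disulfide isomerase (-0.88 ± 0.18, edgeR adjusted p = 0.0048). It stood at 299, 253, 215 and 303 CPM in CONT 1, ABL 1, CONT 2 and ABL 2 of the pre-osteoblast-like cells, below the 460, 506, 471 and 510 of the reticular-like cells in every library.

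Osteoblast-like cells were a different case. They reached 10 cells in ABL 1 and ABL 2 only, so the comparison is of these 2 libraries, with the library as a block. There 2975 of 9626 genes were called (30.9%), 1413 higher (14.7%) and 1562 lower (16.2%). Of the 36 members 18 were higher, 7 lower and 11 not called, with a median log2 fold change of 0.56 beside -0.04 over all genes. By role, 10 of 11 translocon and signal peptidase genes and 4 of 4 coat and retrieval genes were higher, while of 15 chaperones and isomerases 6 were lower and 1 higher.

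In CONT 1 and CONT 2, which had 9 and 2 osteoblast-like cells and were not used in the test, 17 and 15 of the 18 higher members and in both libraries the 7 lower members had the same direction. Some of these ratios were near 0, such as 0.001 for P4hb in CONT 1 and 0.003 for Sec61a1 in CONT 2. The share of all called genes with the same direction is not given. Against pre-osteoblast-like cells in place of reticular-like cells, a comparison added after the data were seen, 19 members were higher and 3 lower in osteoblast-like cells (34 tested, background 14.1% higher and 13.2% lower). A few transcripts take up much of an osteoblast-like library: Col1a1 and Bglap alone stood at 113000 and 68460 CPM in ABL 1. With library sizes only, the median of all genes was -0.66 on the log2 scale, a shift of -0.63. In that setting 10 members were higher and 15 lower, beside 7.06% of all genes higher and 39% lower. All 7 lower members and 10 of the 18 higher ones were called under both scalings.

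Translocon genes were higher. Ssr4, a subunit of the translocon-associated TRAP complex, stood at 267 CPM in reticular-like and 618 in osteoblast-like cells of ABL 1, and at 216 and 830 in ABL 2 (log2 fold change 2.20 ± 0.28, edgeR adjusted p = 1.7e-13). Tram1, which helps chains into the membrane, stood at 85.1 and 175 in ABL 1 and at 68.2 and 189 in ABL 2 (1.89 ± 0.24, edgeR adjusted p = 1.5e-13). Sec61b stood at 350 and 629 in ABL 1 and at 293 and 868 in ABL 2 (1.83 ± 0.28, edgeR adjusted p = 9.7e-10). In each of the 3 genes the osteoblast-like value was above the reticular-like value in both libraries. Sec61a1 and Sec61g were also higher under both scalings, whereas Ssr1, Ssr2, Ssr3, Spcs1 and Spcs2 were called higher with TMM scaling and not with library sizes only. DESeq2 did not call Spcs1 (DESeq2 adjusted p = 0.062). Spcs3, a signal peptidase subunit, was the member of this role that was not higher (-0.73 ± 0.34, edgeR adjusted p = 0.086), and it was called lower with library sizes only (-1.35).

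All 4 genes of coat and retrieval were higher, under both scalings. Kdelr3, a KDEL receptor, stood at 61.8 CPM in reticular-like and 190 in osteoblast-like cells of ABL 1, and at 49.5 and 233 in ABL 2 (2.56 ± 0.25, edgeR adjusted p = 4.1e-23). Its paralog Kdelr2 stood at 202 and 563, and at 156 and 599 (2.34 ± 0.28, edgeR adjusted p = 1.4e-15). Sec24d, the COPII cargo adaptor used in collagen export, stood at 66.4 and 88.6, and at 49.9 and 113 (1.45 ± 0.24, edgeR adjusted p = 2.1e-08). Sec31a, the outer COPII coat, stood at 98.3 and 182, and at 118 and 294 (1.74 ± 0.25, edgeR adjusted p = 2.7e-11). Kdelr3 and Sec24d are the 2 members with an XBP1-type element in the promoters printed above.

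Of the folding factors 6 were lower. Hspa5 stood at 1049 CPM in reticular-like and 289 in osteoblast-like cells of ABL 1, and at 1660 and 340 in ABL 2 (-1.45 ± 0.28, edgeR adjusted p = 2.3e-06). Pdia6 stood at 506 and 108, and at 510 and 133 (-1.45 ± 0.26, edgeR adjusted p = 4.4e-07). Sdf2l1 stood at 36.5 and 7.08, and at 25.3 and 6.39, the osteoblast-like sums resting on few UMIs (-1.52 ± 0.46, edgeR adjusted p = 0.0041). Hsp90b1, Hyou1 and Pdia4 were lower by 0.96, 1.19 and 0.79 on the log2 scale. These 6 genes were lower than in reticular-like cells in both libraries and under both scalings. Against pre-osteoblast-like cells, Hspa5 (-0.63, edgeR adjusted p = 0.015) and Pdia6 (-0.60, edgeR adjusted p = 0.029) were called lower. Hsp90b1 (-0.31) and Pdia4 (-0.19) were not called there, and Hyou1 and Sdf2l1 were not tested. DESeq2 called Hspa5, Hsp90b1 and Pdia6 lower but not Hyou1, Sdf2l1 or Pdia4 (DESeq2 adjusted p = 0.53, 0.33 and 0.20).

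The other folding genes were not called lower with TMM scaling. P4hb, a disulfide isomerase and the beta subunit of collagen prolyl 4-hydroxylase, stood at 397 and 444 CPM in ABL 1, and at 352 and 470 in ABL 2, and was called higher with TMM scaling (0.92 ± 0.27, edgeR adjusted p = 0.0032) and not with library sizes only (0.29). Calr, Canx, Manf, Dnajb9, Dnajb11, Dnajc3, Pdia3 and Creld2 were not called, with log2 fold changes between -0.62 and 0.40. Of these, Calr, Canx, Dnajc3, Pdia3 and Creld2 had ratios below 0 in both libraries, and Manf and Dnajb11 above 0 in both. With library sizes only, 39% of all genes tested were called lower. Of these 8 members 6 were called lower in that setting: Calr (-1.25, edgeR adjusted p = 0.00025), Pdia3 (-1.12, 0.00070), Dnajc3 (0.00089), Canx (-0.80, 0.0080), Creld2 (-0.86, 0.022) and Dnajb9 (0.03 to -0.60, 0.046). Manf went from 0.40 to -0.23 and Dnajb11 from 0.29 to -0.34 without a call.

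Among the regulators Creb3l1 differed most. It stood at 53.2 CPM in reticular-like and 282 in osteoblast-like cells of ABL 1, and at 67.1 and 345 in ABL 2 (3.01 ± 0.26, edgeR adjusted p = 1.5e-29). The 2 CONT libraries had 240 and 218 in their 9 and 2 osteoblast-like cells, beside 43.5 and 47.8 in reticular-like cells. Atf6, the sensor whose target element lies in the Hspa5 promoter, stood at 35.5 and 8.86 in ABL 1 and at 67.5 and 10.7 in ABL 2 (-1.82 ± 0.39, edgeR adjusted p = 3e-05). Its osteoblast-like sums rested on few UMIs, and DESeq2 did not call it (DESeq2 adjusted p = 0.11). Xbp1 and Atf4 were called higher with TMM scaling (1.00 ± 0.24 and 0.73 ± 0.24, edgeR adjusted p = 0.00022 and 0.012) and not with library sizes only, where Atf4 was 0.10. DESeq2 called Xbp1 but not Atf4 (DESeq2 adjusted p = 0.036 and 0.11). Ddit3 and Herpud1 were not called with TMM scaling (-0.48 and 0.30). With library sizes only Ddit3 was called lower (-1.11, edgeR adjusted p = 0.00017) and Herpud1 turned to -0.33 without a call.

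Depth and stress transcripts moved with these classes too. Osteoblast-like cells had a median of 9874 and 17293 UMIs in ABL 1 and ABL 2 against 6616 and 7604 in reticular-like cells. Fos stood at 499 and 476 CPM in osteoblast-like cells of ABL 1 and ABL 2 against 2290 and 1797 in reticular-like cells. With every cell thinned to 2000 UMIs, 13 members were higher and 3 lower, and the shares of all genes called in this setting are not given. Free RNA was also subtracted, at hemoglobin-based shares of 65.6% in reticular-like and 0.311% in osteoblast-like cells of ABL 2. In ABL 1 the shares were at most 13.8%. These shares rest on hemoglobin transcripts alone. Reticular-like cells of ABL 2 had 1491 CPM of Hba-a1 against 74.0 in CONT 2. They had 34.8 of the granulocyte marker S100a8 against 46.3 in CONT 2, so the 2 kinds of transcript did not move together. Whether the subtraction removed too much was not tested. After this subtraction 1 member kept its call, Creb3l1, while Hspa5 was at -1.83 and Kdelr3 at 4.59 on the log2 scale. In ABL 2 the free RNA held 62.1 CPM of Creb3l1 and 74.6 of Kdelr3, beside 67.1 and 49.5 in its reticular-like cells.

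**Figure D3:**
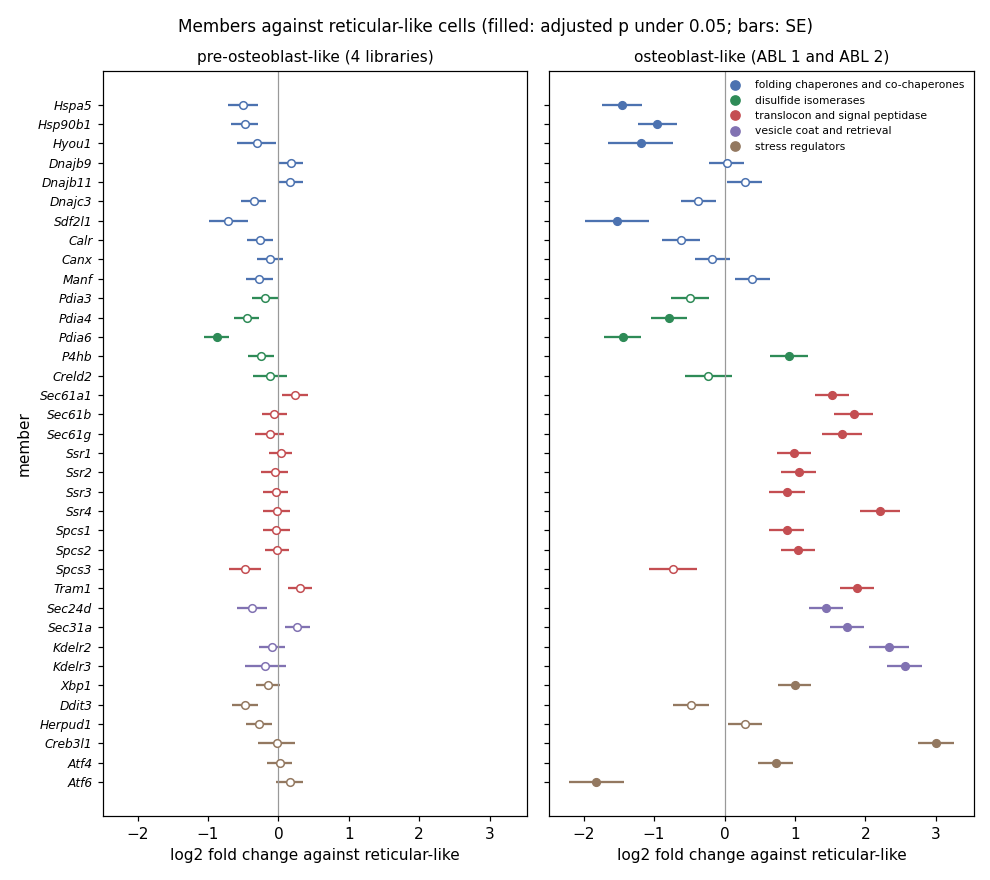
Log2 fold change against reticular-like cells for each member, in pre-osteoblast-like cells (left, 4 libraries) and osteoblast-like cells (right, ABL 1 and ABL 2), with the SE as bars and filled points past an adjusted p of 0.05. On the right the translocon and the coat and retrieval genes lie mostly to the right of 0 and Hspa5, Hsp90b1, Hyou1, Sdf2l1, Pdia4, Pdia6 and Atf6 to the left; on the left only Pdia6 is filled.

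The 92 other pathway genes are given for osteoblast-like cells as a comparison: of 86 tested, 42 were higher, 5 lower and 39 not called, with a median of 0.67, beside 14.7% of all genes higher and 16.2% lower. With library sizes only 20 were higher and 14 lower with a median of 0.04, beside 7.06% and 39% of all genes. With TMM scaling, ER-Golgi traffic had 17 of 24 higher and 0 lower, for example Sec23a, an inner COPII coat gene (1.91 ± 0.25, edgeR adjusted p = 1.1e-12), Bet1, a SNARE (1.77 ± 0.24, edgeR adjusted p = 4.5e-12), and Lman1, a cargo receptor (1.69 ± 0.25, edgeR adjusted p = 2.8e-10). Translocation and glycosylation had 13 of 22 higher and 0 lower, for example Srprb, of the signal recognition particle receptor, at 1.86 ± 0.27, Sec11c, a signal peptidase subunit, at 1.73 ± 0.25, and Ostc, of the oligosaccharyltransferase, at 1.61 ± 0.26. Folding factors had 6 higher and 2 lower of 17, degradation genes 3 and 2 of 13, and sensors and regulators 3 and 1 of 10. The lower regulator was Ppp1r15a (-1.11 ± 0.26, edgeR adjusted p = 0.00014), the GADD34 phosphatase subunit.

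Pooling pre-osteoblast-like with osteoblast-like cells, which allowed all 4 libraries, 1486 of 10852 genes were called (13.7%), 638 higher (5.88%) and 848 lower (7.81%). Of the members 5 were higher, Sec61a1, Tram1, Sec31a, Kdelr3 and Creb3l1, and 2 lower, Pdia6 and Sdf2l1, and with the replicate block 1 was higher and 1 lower. Osteoblast-like cells made up 9 of 50, 49 of 124, 2 of 35 and 54 of 113 cells of this class in CONT 1, ABL 1, CONT 2 and ABL 2, so its make-up differed by condition. In CONT 2 the log2 ratios of Creb3l1, Sec31a and Sec61a1 were -0.28, -0.22 and -0.02, below 0. The count moved with the libraries: without ABL 1 it was 0 higher and 1 lower, without CONT 1 it was 3 and 1, without CONT 2 it was 8 and 1, and without ABL 2 it was 2 and 2. With library sizes only it was 3 higher and 7 lower, beside 4.15% of all genes higher and 10.9% lower. For the fits without 1 library such shares are not given.

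Other stromal classes were compared with reticular-like cells in the same way. In periosteal or joint-lining fibroblast-like cells (47, 57, 38 and 880 cells, 4 libraries), where 8.47% of 11710 genes were called higher and 9.88% lower, 6 members were higher: Creld2, Sec61b, Tram1, Kdelr2, Kdelr3 and Creb3l1. Atf6 was the 1 lower (-0.93 ± 0.24, edgeR adjusted p = 0.025). Kdelr3 stood at 71.4, 107, 88.2 and 141 CPM there in CONT 1, ABL 1, CONT 2 and ABL 2, above the reticular-like value in every library (1.18 ± 0.22, edgeR adjusted p = 0.0055). In chondrocyte-like cells (14 and 77 cells of ABL 1 and ABL 2; 5.95% of genes higher, 7.78% lower) 4 members were higher and 0 lower: Sec61b, Ssr4, Kdelr2 and Kdelr3. Ssr4 stood at 808 and 1092 CPM there (2.41 ± 0.50, edgeR adjusted p = 0.0036). In cycling cells (12 and 59 cells of ABL 1 and ABL 2; 6.64% higher, 7.8% lower) Kdelr3 was higher (1.43 ± 0.42, edgeR adjusted p = 0.037) and Hspa5 lower (-1.07 ± 0.29, edgeR adjusted p = 0.027), and DESeq2 called 0 there. The hemoglobin-based estimate of free RNA in cycling cells of ABL 2 was 81.0%. Without TMM scaling the chondrocyte-like counts became 2 higher and 2 lower, beside 458 and 1244 of 10040 genes. The cycling counts became 6 and 2, beside 943 and 1048 of 10475 genes.

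Across all classes, Creb3l1 and Kdelr3 were low outside the mesenchymal lineage. In granulocyte-like cells Creb3l1 stood at 3.28, 2.82, 8.09 and 6.67 CPM in CONT 1, ABL 1, CONT 2 and ABL 2, and in erythroid-like cells at 1.60, 2.76, 2.21 and 3.72. The highest Xbp1 values were in endothelial-like cells, at 511, 920 and 516 CPM in CONT 1, CONT 2 and ABL 2, above every other class with 10 or more cells, while osteoblast-like cells had 154 and 157 in ABL 1 and ABL 2. Hspa5 was highest in reticular-like cells in 3 of the 4 libraries, CONT 2, ABL 1 and ABL 2, and in pre-osteoblast-like cells in CONT 1 (1082 against 969 CPM). These orders are descriptions, with no test.

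**Figure D4:**
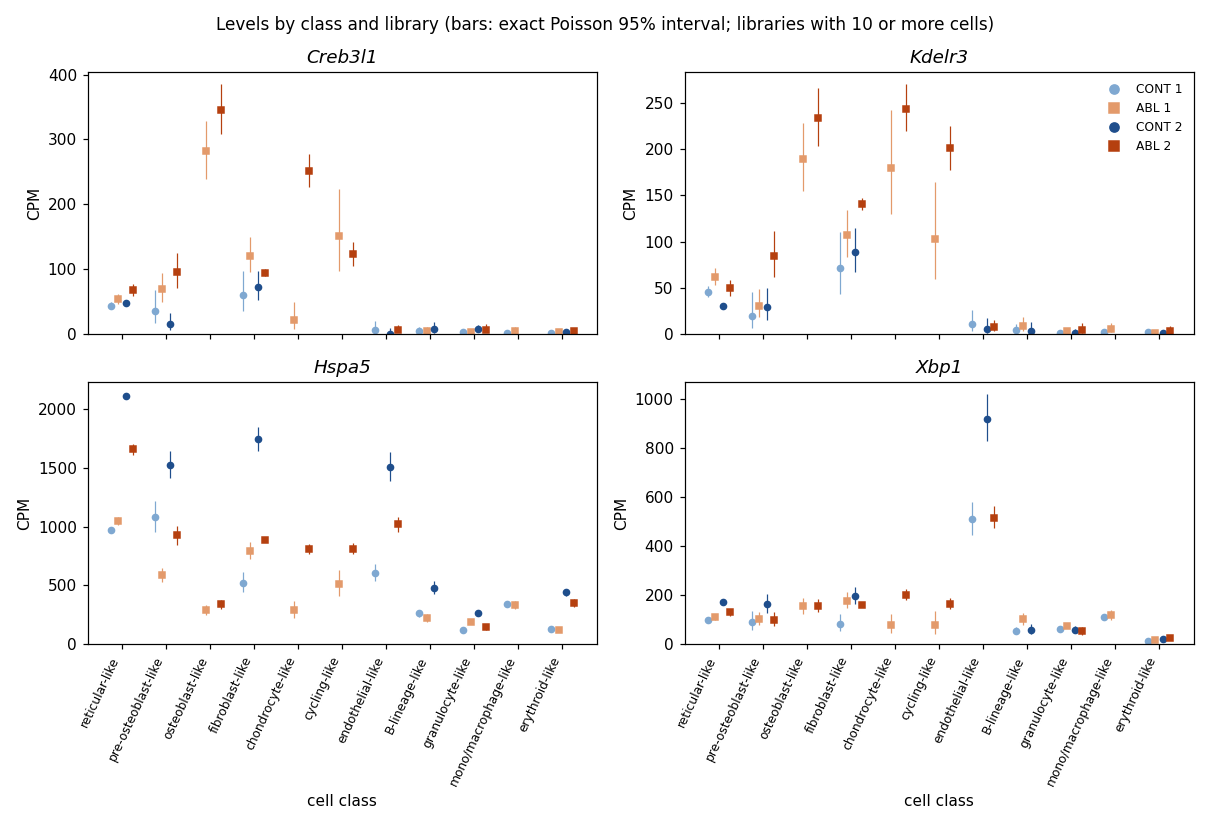
CPM of Creb3l1, Kdelr3, Hspa5 and Xbp1 in each named class and library with 10 or more cells, with exact Poisson 95% intervals (counting error only). Osteoblast-like cells of ABL 1 and ABL 2 hold the highest Creb3l1 (282 and 345) and endothelial-like cells the highest Xbp1 (511 to 920).

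Reticular-like cells were not uniform. They fell into 8 clusters, and over those with at least 10 cells Ddit3 reached at most 156 CPM in CONT 1, 188 in ABL 1, 110 in CONT 2 and 226 in ABL 2, beside 75.8, 104, 60.0 and 79.9 in the largest cluster. The highest Ddit3 value lay in the same cluster in CONT 1, ABL 1 and CONT 2, which also had the highest Fos in all 4 libraries (12410, 12700, 10860 and 6344 CPM), and in another cluster in ABL 2. High Fos and high Ddit3 did not always go together: in a cluster with 5153 CPM of Fos in CONT 1, Ddit3 was at 53.8. The clusters were formed from genes other than the members, and no test was made between them.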

How the data were processed

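The deposited files were raw UMI counts per gene and barcode, which per the labels and the study's methods the authors made with Cell Ranger on mm10 with the reporter sequences added, from Chromium v2 (replicate 1) and v3 (replicate 2) libraries. Barcodes were kept by the methods' filters (at least 500 genes and at most 20% mitochondrial reads for v2, 1000 genes and 15% for v3) and above a UMI floor of 1 in 10 of the 99th percentile of the 3000 deepest barcodes. Mesenchymal cells of the 4 libraries were integrated and clustered with Seurat 5.3.0 (2000 variable genes, 30 components, 20 neighbours, resolution 0.8). Clusters were named from marker lists, with a score of at least 0.25, a margin of 0.1 and 3 detected markers, thresholds that were set after the clusters were seen. Scrublet, in scanpy 1.11.5, marked 0.083% to 2.24% of cells as doublets, hardly any in CONT 2, and they were removed only as an alternative.

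UMIs were summed per library and class. Levels are CPM, UMIs relative to the class sum, with exact Poisson 95% intervals that cover counting error only. Fold changes are on the scale of TMM normalization. The test was edgeR 4.0.16's quasi-likelihood test after filterByExpr, with Benjamini-Hochberg adjustment over all genes and a threshold of 0.05, and DESeq2 1.42.0 as an alternative. ABL was compared with CONT with the replicate number as a block, since same-numbered libraries share a chemistry and deviated together (correlation 0.759 in reticular-like, 0.366 in all mesenchymal and 0.812 in myeloid cells). Classes were compared within library, in libraries with at least 10 cells of the class. The scripts were tested on simulated counts. Genes named are the members, markers, and some of the up to 3 other pathway genes per group and direction with the largest called change in the same direction in both libraries and a mean of at least 20 CPM. Fos and Hspa1a were named after their values were seen. The members and lists were chosen with earlier results of these data known.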

Additional observations from a re-analysis of the deposited data

How the results depend on the processing

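In reticular-like cells, ABL against CONT gave 0 members higher under every alternative run and 0 lower except with the methods' filter alone, which called 1 lower, Sdf2l1. The members' median log2 fold change of 0.031 became -0.025 with free RNA subtracted, -0.063 without replicate 1 and 0.064 without replicate 2, and ranged from -0.016 to 0.18 when 1 library was left out without the replicate block. Without the replicate block the median was 0.03 and no member was called. In all mesenchymal cells thinning gave 1 member higher, and the median was 0.25 without replicate 1, 0.14 without replicate 2 and 0.045 to 0.40 without 1 library. In myeloid cells the methods' filter alone gave a median of 0.36, and it was 0.19 without replicate 1, -0.064 without replicate 2 and -0.19 to 0.60 without 1 library (-0.16 without CONT 2). The median difference between the reticular-like and myeloid changes turned from -0.15 to 0.16 with library sizes only. In pre-osteoblast-like cells the 1 call was lost with DESeq2 and without the replicate block (0 each), and leaving out 1 library gave 0 to 4 calls and medians of -0.0757 to 0.13.

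For osteoblast-lineage against reticular-like cells (5 higher, 2 lower), integration within each replicate gave 2 and 1, library sizes only 3 and 7 with a median of -0.054, DESeq2 4 lower, no filter on low counts 5 lower, the replicate block 1 and 1, and thinning 2 higher. Leaving out 1 library gave 0 to 8 higher and 1 to 2 lower. For osteoblast-like against reticular-like cells (18 and 7, median 0.56), library sizes only gave 10 and 15 with a median of -0.068, DESeq2 3 lower, no filter a median of 0.45, free RNA subtraction 1 and 0 with 0.67, thinning 3 lower with 0.30, pre-osteoblast-like cells as the reference 3 lower with 0.75, and 1 library alone 0.38 to 0.45. With library sizes only Dnajb9 turned to -0.60, Manf to -0.23, Dnajb11 to -0.34 and Herpud1 to -0.33. In that setting 7.06% of all genes were called higher and 39% lower in osteoblast-like cells. DESeq2 called 2 members lower in pre-osteoblast-like cells, 12 higher and 2 lower in fibroblast-like cells, and 0 and 0 in cycling cells. Library sizes only gave 2 and 2 in chondrocyte-like and 6 and 2 in cycling cells. The alternatives for single classes were chosen after seeing the data, and the causes of these changes were not tested. Except where printed, the shares of all genes called under an alternative are not given, so those counts have no background beside them. The limits are 2 libraries per condition, few osteoblast-like cells in CONT, and replicate and chemistry that cannot be told apart. A further limit is ABL 2, whose Xist (0.118% of cells) and Y-linked (70.5%) shares differ from those of the other libraries. Condition and the sex of the mice therefore cannot be told apart in replicate 2 as a whole. The free RNA share of reticular-like cells in ABL 2, 65.6%, is an estimate from hemoglobin transcripts alone. Among cells with a Y-linked UMI and no Xist UMI, ABL against CONT again gave 0 members called in reticular-like, all mesenchymal and myeloid cells. The full sums had given 0 too, and outside ABL 2 only 12.6 to 27.2% of cells had a Y-linked UMI. This count therefore cannot show whether the sex of the mice had a part.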
